A study of Mus musculus with 24 samples.

Results

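The replication-dependent histone genes were followed in mouse neurosphere cultures given dexamethasone. All genes whose symbol begins with Hist1h, Hist2h, Hist3h or Hist4h were taken as members, which gave 70 of the 38920 genes in the tables. They comprised 6 genes of class H1, 20 of H2A, 19 of H2B, 12 of H3 and 13 of H4. By symbol, 56 of them belonged to cluster 1 on chromosome 13, 10 to cluster 2 on chromosome 3 and 3 to cluster 3 on chromosome 11. Cluster 4 on chromosome 6 held Hist4h4 alone. Hist1h2al, counted with cluster 1 by its symbol, lies far from the others of that cluster, at chr13:51202727-51203065. By the mouse annotation GENCODE M21, 67 were protein-coding and 3 were pseudogenes (Hist1h2aj, Hist1h2al and Hist3h2bb-ps).

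RNA was measured by sequencing in 24 libraries of neurospheres, floating aggregates rich in neural stem cells, from the hypothalamus or cerebral cortex of embryos at day 14.5. Per the labels, passage 3 cultures received 100 nM dexamethasone (dex), a synthetic glucocorticoid, and their controls received ethanol vehicle, both for 4 hours. The 8 groups were dex and vehicle in male hypothalamus, female hypothalamus, male cortex and female cortex, with 3 replicates each. All groups shared the age, the passage and the culture form, and the labels gave no strain or genotype. Whether 1 embryo, a litter or a pool stands behind a replicate is not given, so p-values measure the spread between these samples only.

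Histone proteins package DNA. Pairs of H3 and H4 and pairs of H2A and H2B form the core around which DNA is wound, and the linker histone H1 binds where the DNA enters and leaves it. A dividing cell must make new histones while it copies its DNA, and the replication-dependent genes supply them: they lie in clusters, and their messenger RNAs accumulate in S phase and are degraded when replication ends. Most of these messengers have no poly(A) tail and end after a short hairpin, the stem-loop, which is bound by the protein SLBP. NPAT drives transcription of the clusters, and the U7 snRNP, which contains Lsm10 and Lsm11, directs cleavage of the RNA after the hairpin. The libraries were made from total RNA, and how fully messengers without a poly(A) tail were captured in them was not tested.

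The hairpin is shown first because it defines these messengers and because the copies share it. It was searched for as a 6-base stem that begins with GG, a 4-base loop that begins with TT, and the exact reverse complement of the stem. The search covered the 100 bases after the stop codon of the GENCODE M21 transcripts (build GRCm38), and the hairpin was found in 44 of 70 members. Other forms were not searched for, so the likeness of the hairpins is partly set by the search. Of the 23 coding members without it, 17 had an annotated transcript that ended within 50 bases of the stop codon, so the letters were not in the annotated sequence. The hairpins of 6 H1 and H4 genes are printed with 5 flanking bases on each side, and capitals mark the paired stem.
Hist1h1c: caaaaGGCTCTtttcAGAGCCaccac
Hist1h1d: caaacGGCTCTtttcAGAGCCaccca
Hist1h4h: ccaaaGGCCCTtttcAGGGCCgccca
Hist4h4: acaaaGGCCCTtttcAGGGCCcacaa
Hist1h4i: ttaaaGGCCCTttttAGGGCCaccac
Hist1h4b: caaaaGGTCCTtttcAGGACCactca
Among the 44 hairpins there were 6 distinct sequences. The stem GGCTCT was carried by all H1, H2A, H2B and H3 members with a hairpin, whereas the 11 H4 members with one had GGCCCT (9 genes) or GGTCCT (2 genes). The hairpin began at a median of 32 bases after the stop codon, with a range of 22 to 59.

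Promoters are shown because they differ between the classes in the motifs they hold. In the RefSeq promoters of build GRCm38.p6, 61 members had a sequence, and motifs were searched on both strands from 250 bases before the start to 50 after it. The windows of neighbouring H2A and H2B genes that face each other overlap. The 250 bases before the start of an H1, an H2B and an H4 gene are printed, on the gene's strand, with capitals for the TATA box (TATAAA), the CCAAT box, the octamer (ATTTGCAT) and the H1 box (AAACACA) or their complements. They lie at chr13:21780626-21780875 on the minus strand (Hist1h1b), chr13:23746484-23746733 on the plus strand (Hist1h2bb) and chr13:23581318-23581567 on the plus strand (Hist1h4d).
Hist1h1b: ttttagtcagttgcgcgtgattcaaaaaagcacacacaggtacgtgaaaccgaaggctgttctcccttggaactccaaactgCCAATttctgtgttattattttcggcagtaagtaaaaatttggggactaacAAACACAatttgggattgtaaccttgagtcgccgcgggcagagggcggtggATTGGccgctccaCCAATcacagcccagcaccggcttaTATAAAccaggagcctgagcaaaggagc
Hist1h2bb: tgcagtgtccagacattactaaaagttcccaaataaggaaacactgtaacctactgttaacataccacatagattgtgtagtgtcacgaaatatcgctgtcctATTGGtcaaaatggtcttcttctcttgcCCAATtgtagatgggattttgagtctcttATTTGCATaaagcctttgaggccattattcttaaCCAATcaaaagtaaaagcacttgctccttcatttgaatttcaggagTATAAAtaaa
Hist1h4d: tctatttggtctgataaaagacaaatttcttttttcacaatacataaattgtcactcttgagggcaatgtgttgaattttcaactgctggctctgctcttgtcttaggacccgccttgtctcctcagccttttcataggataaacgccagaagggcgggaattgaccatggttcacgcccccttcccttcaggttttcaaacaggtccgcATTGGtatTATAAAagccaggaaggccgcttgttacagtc
The CCAAT box was in 85.2% of the members' promoters, against 37.92% of all 27025 promoters. Every matched H1, H2A, H2B and H3 promoter held it, and 3 of 12 H4 promoters did. TATAAA was in 55.7% of the members' promoters and 14.16% of all. The octamer ATTTGCAT was in 7 of 18 H2A and 6 of 16 H2B promoters and in none of the other classes, against 1.75% of all promoters. AAACACA, the H1 box, was in 4 of 5 H1, 2 of 18 H2A and 2 of 16 H2B promoters, in no H3 or H4 promoter, and in 7.14% of all. The half-site of the glucocorticoid response element, AGAACA, was in 19.7% of the members' promoters and 19.02% of all, and the form with both half-sites, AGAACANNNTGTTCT, was in 0 of 61 and in 1 of all promoters. A match is a description of these letters in this window only.

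The libraries held 16.04 to 25.49 M reads in genes in hypothalamus and 16.39 to 20.94 M in cortex. Genes that collect ribosomal RNA reads took 30.4% to 42.8% of the reads in hypothalamus and 1.28% to 2.99% in cortex. The members took 0.26% to 0.502% of all reads in genes in hypothalamus and 0.382% to 1.06% in cortex. Of the reads outside the ribosomal RNA genes, the members took 0.423% to 0.747% in hypothalamus and 0.394% to 1.08% in cortex. Levels are given in RPM, the reads per 1 M of a scaled library size that the authors deposited. Levels compared between regions, and levels per kilobase, are instead reads per 1 M on a common scale over the 24 libraries. Sums of cell type markers are in the deposited RPM, which was scaled for each table apart, so they are not compared between regions. Neural stem cell markers (10 genes such as Nes and Sox2) summed to 5290 to 6780 RPM in hypothalamus libraries and to 7180 to 8560 RPM in cortex libraries. Microglial markers (6 genes) stayed at or below 0.823 RPM and erythroid markers (5 genes) at or below 0.392 RPM. Male hypothalamus replicate 2 stood apart: Xist, the RNA of the inactive X chromosome, was at 30.1 RPM in its dex library and 26.4 RPM in its vehicle library, against at most 0.768 RPM in the other male libraries, so results of male hypothalamus are also given without it.

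A member entered the test of a comparison if 3 or more of its 6 libraries reached 1 RPM. This left 55 members in each hypothalamus comparison, 62 in male cortex and 61 in female cortex, with 55 present in all 4 and 7 in cortex but not in hypothalamus. Hist1h1t, a testis-specific H1, passed nowhere, and neither did Hist1h2aa, Hist1h2al, Hist1h2bq, Hist1h4m, Hist2h2aa1, Hist2h2aa2 and Hist2h3c1; the mean levels of these 8 genes were at or below 0.406 RPM in every group. Near-identical copies share reads: 32 of 70 members had 50% or more of their 50-base words in the transcripts of other members, 8 had 90% or more, and 6 had none; genes outside the members were not compared. Values of single genes with shared sequence are therefore uncertain. The exons of Hist2h2bb and Hist2h3b of cluster 2 overlap the annotated gene Gm20628 on the opposite strand (Hist2h2bb also Gm42743 on the same strand). Opposite-strand overlaps were also annotated for members detected in hypothalamus, such as Hist1h2ak (with Gm44454) and Hist2h2ac (with Gm44492). Hist1h1e and Hist1h2be overlap each other on the same strand. The part of overlaps in the values was not tested. Hist2h2bb and Hist2h3b were listed at or near 0 in every hypothalamus library (at most 0.13 RPM and 0 RPM), although they had 198 to 727 RPM and 34.7 to 104 RPM in cortex. Med10, Pdcd2, Cox20, Pus3 and Snora73b had the same pattern, so no difference between regions is given for these genes.

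Dexamethasone gave higher levels of most replication-dependent histone genes in male cortex. The summed level of all 70 members was 9267, 10635 and 9292 RPM in the dex libraries, against 6307, 5809 and 5293 RPM in the vehicle libraries. Every dex library lay above every vehicle library, and the ratio of the means was 1.68. Of the 62 members tested, 53 rose and 0 fell at an adjusted p under 0.05 (limma, Benjamini-Hochberg over all genes), while 26.7% of all genes rose and 20.9% fell. The median log2 change was 0.68 for the members and 0.044 for all 13205 genes tested. In 55 of 62 members every dex library exceeded every vehicle library, as it did in 32.4% of all genes. On the recovered reads edgeR called 53 members higher and 1 lower (21.7% and 24.1% of all genes), and DESeq2 called 51 higher and 1 lower (19.2% and 21.2%). In these bulk samples, a larger share of cells of one kind (such as cells in S phase) and more histone RNA per cell cannot be told apart.

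**Figure D1:**
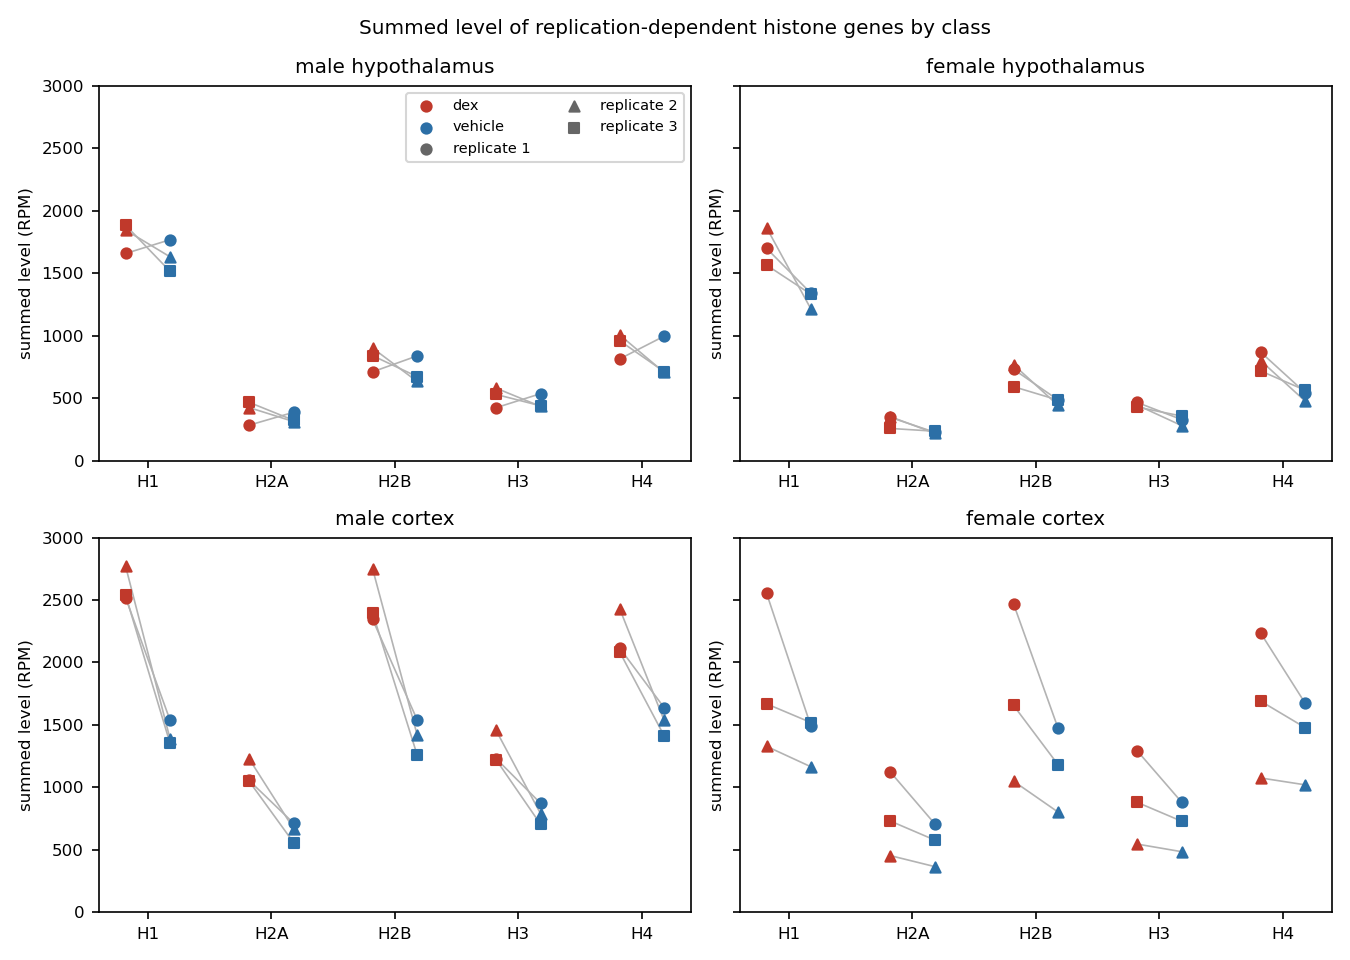
Summed level of the members of each class in every library, in RPM, for dex (red, left) and vehicle (blue, right) in each of the 4 comparisons; symbols give the replicate number and grey lines join libraries of the same number. In male cortex and female hypothalamus all 3 dex libraries of each class lay above all 3 vehicle libraries, and in male hypothalamus and female cortex they overlapped.

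All 5 measured linker histone genes rose in male cortex. H1 genes summed to 2609 ± 140 RPM with dex and 1427 ± 98 RPM with vehicle (SD, n = 3 each). Hist1h1b (chr13:21779883-21780625, minus strand), the gene of H1.5, had the largest change of all members: it had 464, 487 and 461 RPM with dex, against 210, 198 and 181 RPM with vehicle. The groups lay far apart, with a log2 change of 1.26 ± 0.06 (SE) and an adjusted p of 2.69e-07. Hist1h1d (chr13:23553262-23560686, plus strand), the gene of H1.3, had 559, 649 and 581 RPM with dex and 300, 272 and 261 RPM with vehicle. Its log2 change was 1.10 ± 0.07, and no library overlapped. Hist1h1c, Hist1h1e and Hist1h1a, which encode H1.2, H1.4 and H1.1, rose by less, with log2 changes of 0.75, 0.67 and 0.62.

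The core histone genes moved the same way. Of 16 H2A members 13 rose, of 18 H2B members 16 rose, of 11 H3 members 10 rose, and of 12 H4 members 9 rose. The median log2 changes were 0.73 for H2A, 0.71 for H2B, 0.67 for H3 and 0.52 for H4, beside 0.75 for H1. Hist2h2ac (chr3:96220361-96220880, minus strand), an H2A gene of cluster 2, had 116, 127 and 114 RPM with dex, against 54.8, 52.3 and 43.1 RPM with vehicle. This was the largest change among the core histones, at 1.24 ± 0.09 on the log2 scale (adjusted p = 3.19e-06). Hist1h3g, an H3 gene, had 107, 118 and 104 RPM with dex and 51.4, 46.0 and 44.7 RPM with vehicle, a log2 change of 1.19 ± 0.07. Hist1h2bj, an H2B gene, had 146, 170 and 140 RPM with dex and 85.9, 71.3 and 66.0 RPM with vehicle, a log2 change of 1.02 ± 0.10. In each of these genes the lowest dex library was well above the highest vehicle library.

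The most abundant core histone genes rose as well. Per kilobase of annotated exon, the highest level in cortex vehicle libraries was that of Hist2h2bb, at 709 RPM per kb, followed by Hist1h4h at 369 and Hist1h4k at 295. These values are on the common scale over the 24 libraries and depend on the annotated lengths. Hist2h2bb (chr3:96269752-96270132, plus strand) had 662, 727 and 661 RPM with dex and 420, 386 and 359 RPM with vehicle in male cortex, a log2 change of 0.82 ± 0.07. The other H2B genes of high level, Hist1h2bb and Hist1h2bf, rose by 0.88 and 0.73, and the H2A genes Hist1h2ak, Hist1h2ab and Hist1h2ai by 0.69, 0.88 and 0.55. The H3 genes Hist1h3b, Hist1h3f and Hist1h3e rose by 0.87, 0.68 and 0.61. Among the H4 genes, all of which encode the same protein, Hist1h4h rose by 0.69, Hist1h4c by 0.37 and Hist1h4d by 0.35.

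In male cortex 9 tested members did not pass the test: Hist1h2aj, Hist1h2ap, Hist1h2ba, Hist1h2br, Hist1h4i, Hist1h4n, Hist2h3c2, Hist3h2a and Hist4h4. Hist1h4i (chr13:22040636-22041362, minus strand), named after its values were seen, was the one member with a negative estimate. It had 31.3, 34.8 and 28.9 RPM with dex, against 43.1, 36.7 and 33.8 RPM with vehicle. The groups overlapped slightly; the member called lower by edgeR and DESeq2 was this gene. The log2 change was -0.25 ± 0.10 with an adjusted p of 0.0612, which ranged from 0.0176 to 0.291 over 18 alternative settings. Hist4h4 (chr6:136801553-136804415, minus strand), the H4 gene of cluster 4, had 94.1, 111 and 93.2 RPM with dex and 100, 92.7 and 80.2 RPM with vehicle, and its log2 change of 0.13 ± 0.09 did not pass (adjusted p = 0.281). Its dex and vehicle libraries overlapped.

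Members of clusters 1 and 2 rose in like shares. In male cortex 45 of 51 members of cluster 1 rose, with a median log2 change of 0.68, and 6 of 7 of cluster 2, with a median of 0.82. In cluster 3, Hist3h2ba rose by 0.47 and the pseudogene Hist3h2bb-ps by 0.37, while Hist3h2a, at 11.3 to 13.1 RPM with dex and 8.72 to 11.3 RPM with vehicle, had a log2 change of 0.26 that did not pass (adjusted p = 0.0695). The groups of Hist3h2a touched at this rounding. Members with an annotated hairpin and those without gave like values in male cortex: 33 of 39 rose with a median of 0.68, and 20 of 23 rose with a median of 0.67.

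**Figure D2:**
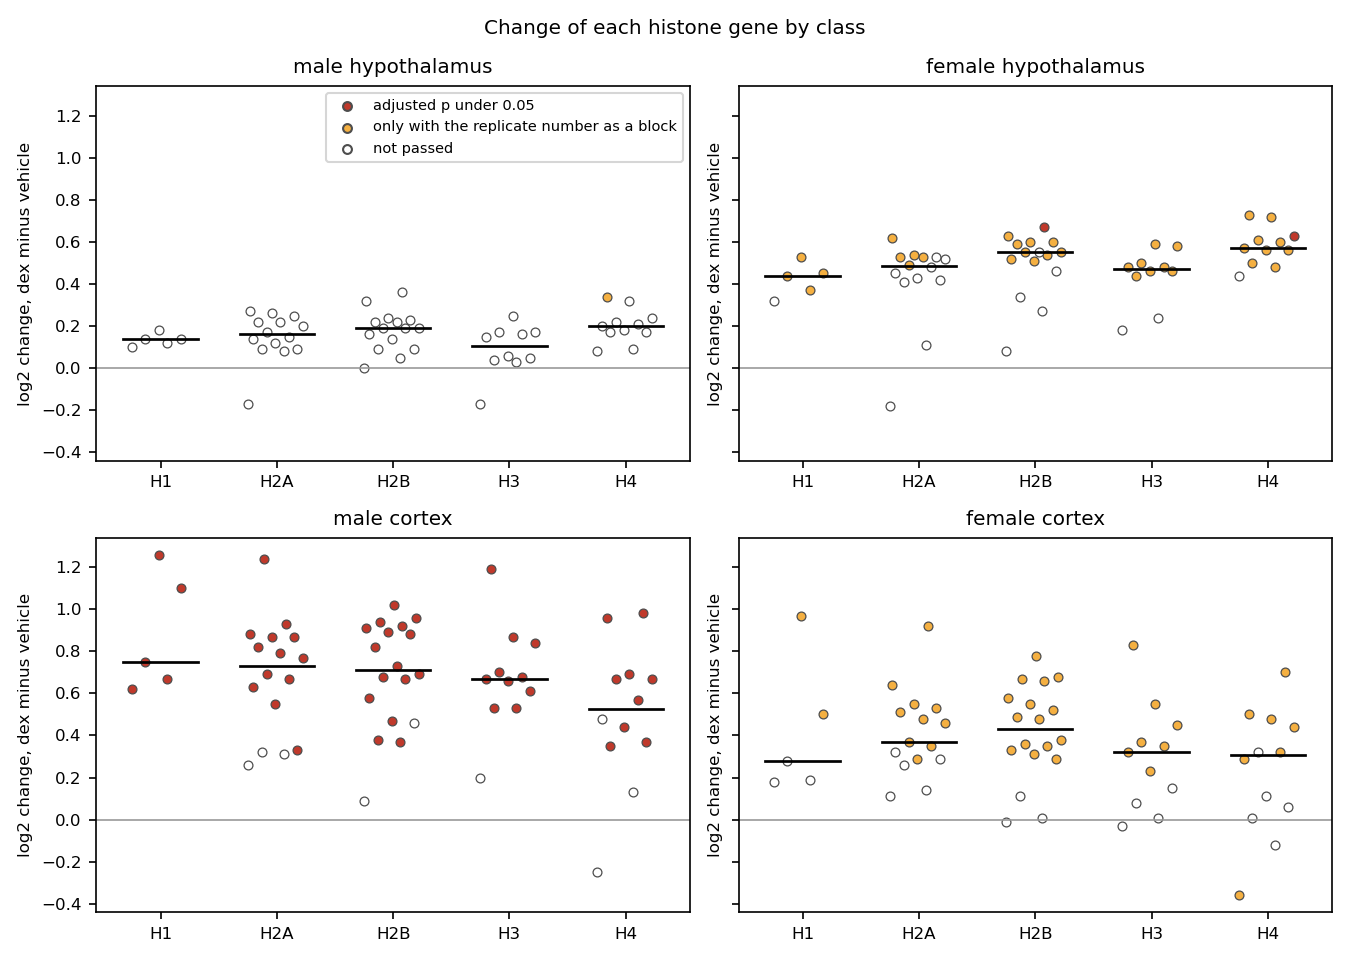
Log2 change (dex minus vehicle, on log2(RPM + 1)) of each member that entered a test, by class and comparison; bars are class medians, red points passed at an adjusted p under 0.05, orange points passed only with the replicate number as a block, and open points did not pass. Red points fill the male cortex panel (53 of 62), all but 4 estimates in female cortex are above 0, and in male hypothalamus 53 of 55 estimates are above 0, with a median of 0.17 and none passed.

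In female cortex the same genes leaned upward, but the replicates differed so much in level that 0 of 61 members passed the test. The summed level of the members was 9678, 4457 and 6629 RPM with dex, against 6231, 3842 and 5490 RPM with vehicle, with a ratio of means of 1.33. Replicate 1 was highest and replicate 2 lowest under both treatments, so the groups overlapped, although each dex library exceeded the vehicle library of its own number by 0.64, 0.21 and 0.27 on the log2 scale. With limma 0 members rose and 0 fell (1.4% and 3.02% of all genes did), and edgeR (1.33% and 2.78%) and DESeq2 (5.23% and 7.78%) also called 0. At the level of single tests 1 member had an unadjusted p under 0.05 (21.4% of all genes). The median log2 change was 0.35, against 0.024 for all genes, and 57 of 61 estimates were positive. Single libraries decided this median: it was 0.07 without dex replicate 1, 0.16 without vehicle replicate 2, 0.54 without vehicle replicate 1 and 0.68 without dex replicate 2. All dex libraries lay above all vehicle libraries in 2 members, Hist2h2ab and Hist2h2be, compared with 13.9% of all genes.

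Same-numbered female cortex libraries deviated together across all genes, but not in a way particular to the number in replicate 3. Its dex library correlated at 0.494 with the vehicle library of its own number and at up to 0.492 with another. With the replicate number as a block 40 members rose and 1 fell (19.9% and 18.2% of all genes), and these counts rest on that pairing. By class these were 2 of 5 H1, 10 of 15 H2A, 15 of 18 H2B, 7 of 11 H3 and 6 of 12 H4 members that rose. Hist1h1b had 449, 163 and 248 RPM with dex, against 196, 85.1 and 145 RPM with vehicle. Each dex library was above its numbered vehicle library, and the log2 change of 0.97 ± 0.44 had an adjusted p of 0.282 without the block and 0.000113 with it. The member that fell under the block was Hist1h4i, with 36.0, 16.9 and 25.5 RPM with dex and 41.2, 25.6 and 32.1 RPM with vehicle. Every dex library was below its numbered vehicle library, with a log2 change of -0.36 and an adjusted p of 0.58 without the block and 0.0177 with it. Over the alternative settings these adjusted p-values ranged from 0.000113 to 0.814 for Hist1h1b and from 0.0177 to 0.936 for Hist1h4i.

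Markers of other cell types also differed between dex and vehicle in cortex. Astrocyte markers (6 genes) summed to 263, 1420 and 880 RPM with dex and 155, 1070 and 701 RPM with vehicle in female cortex, so replicate 1, highest in histone RNA, was lowest in them. Oligodendrocyte-lineage markers (8 genes) summed to 2090, 2740 and 2170 RPM with dex and 1500, 1900 and 1660 RPM with vehicle there. In male cortex they summed to 2010 to 2060 RPM with dex and 1360 to 1520 RPM with vehicle, and 8 of 8 rose. Astrocyte markers in male cortex summed to 338 to 464 RPM with dex and 254 to 302 RPM with vehicle, and 5 of 6 rose. Neuronal markers (8 genes) summed to 1050 to 1220 RPM with dex and 816 to 874 RPM with vehicle in male cortex, where 1 of 7 tested rose, 2 fell, and Stmn2 was under 0.5 RPM in every library. Map2 alone made up most of that sum, with 1180, 999 and 1160 RPM with dex and 779, 819 and 759 RPM with vehicle. Endothelial markers (6 genes) summed to 3.12 to 3.89 RPM with dex and 6.03 to 7.4 RPM with vehicle in male cortex, and the 3 tested fell, while Cdh5 and Cldn5 were under 0.5 RPM in every library. With the block in female cortex 6 of 8 oligodendrocyte-lineage and 4 of 6 astrocyte markers rose. In both hypothalamus comparisons the sums of these 4 lists overlapped between dex and vehicle. In female hypothalamus 1 astrocyte and 1 oligodendrocyte-lineage marker rose without the block (0.793% of all genes). With the block in male hypothalamus 3 astrocyte and 1 oligodendrocyte-lineage markers rose and 1 endothelial marker fell (5.09% and 8.01% of all genes). Neural stem cell markers there summed to 5900 to 6080 RPM with dex and 6200 to 6780 RPM with vehicle. With the block 4 of the 10 fell. The stem cell marker sums overlapped in every other comparison. The part of these cells in the histone changes was not tested. The summed level of 6 genes taken as a check of the treatment (Fkbp5, Tsc22d3, Zbtb16, Fam107a, Fos and Atf3) did not overlap between the groups in any comparison: it was 329 to 581 RPM with dex and 71.5 to 91.9 RPM with vehicle in male hypothalamus, and 698 to 891 RPM with dex and 373 to 553 RPM with vehicle in female cortex.

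In female hypothalamus the summed level of the members was 4123, 4241 and 3571 RPM with dex, against 2937, 2642 and 2982 RPM with vehicle. All dex libraries lay above all vehicle libraries, at a ratio of means of 1.39. Only Hist1h2bm and Hist1h4h rose at an adjusted p under 0.05 and 0 members fell, where 0.793% and 0.048% of all genes did, but 46 of 55 members had an unadjusted p under 0.05 (8.91% of all genes). Every dex library exceeded every vehicle library in 45 of 55 members, against 9.14% of all genes, and the median log2 change was 0.51, against 0.009 for all genes. Hist1h2bm, an H2B gene (chr13:21722044-21722567, plus strand), had 53.4, 50.3 and 53.4 RPM with dex and 35.5, 28.7 and 34.1 RPM with vehicle, a log2 change of 0.67 ± 0.11 (adjusted p = 0.0438). Hist1h4h (chr13:23531050-23531519, plus strand) had 104, 92.0 and 83.5 RPM with dex and 57.9, 59.7 and 61.2 RPM with vehicle, a log2 change of 0.63 ± 0.10 (adjusted p = 0.0458). Neither gene overlapped between the groups, but edgeR called 0 members (0.68% of all genes were higher and 0.056% lower) and DESeq2 called 19 higher and 0 lower (1.83% and 0.496%). Over 18 alternative settings the adjusted p ranged from 0.000152 to 0.463 for Hist1h2bm and from 0.000146 to 0.528 for Hist1h4h.

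Same-numbered libraries deviated together here too, and with the replicate number as a block 37 members rose and 0 fell, where 4.24% and 2.91% of all genes did. They were 4 of 5 H1, 5 of 14 H2A, 10 of 15 H2B, 8 of 10 H3 and 10 of 11 H4 members. By hairpin they were 29 of 37 members with an annotated one and 8 of 18 without. The median log2 changes of these members were 0.53 with a hairpin and 0.46 without, and the 2 sets were not compared by a test. The median log2 changes without regard to the test were 0.44 for H1, 0.49 for H2A, 0.55 for H2B, 0.47 for H3 and 0.57 for H4. These class medians were not compared by a test. Hist4h4 had 46.1, 40.0 and 34.7 RPM with dex, against 25.3, 24.3 and 22.2 RPM with vehicle. The groups lay apart, with a log2 change of 0.72 ± 0.13 and an adjusted p of 0.0631 without the block and 0.00158 with it, in a range of 0.000314 to 0.482 over the alternative settings. Hist1h4i, the gene with negative estimates in cortex, had 23.8, 21.8 and 18.2 RPM with dex and 15.5, 11.7 and 14.9 RPM with vehicle. Its groups did not overlap either, with a log2 change of 0.57 ± 0.15.

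**Figure D3:**
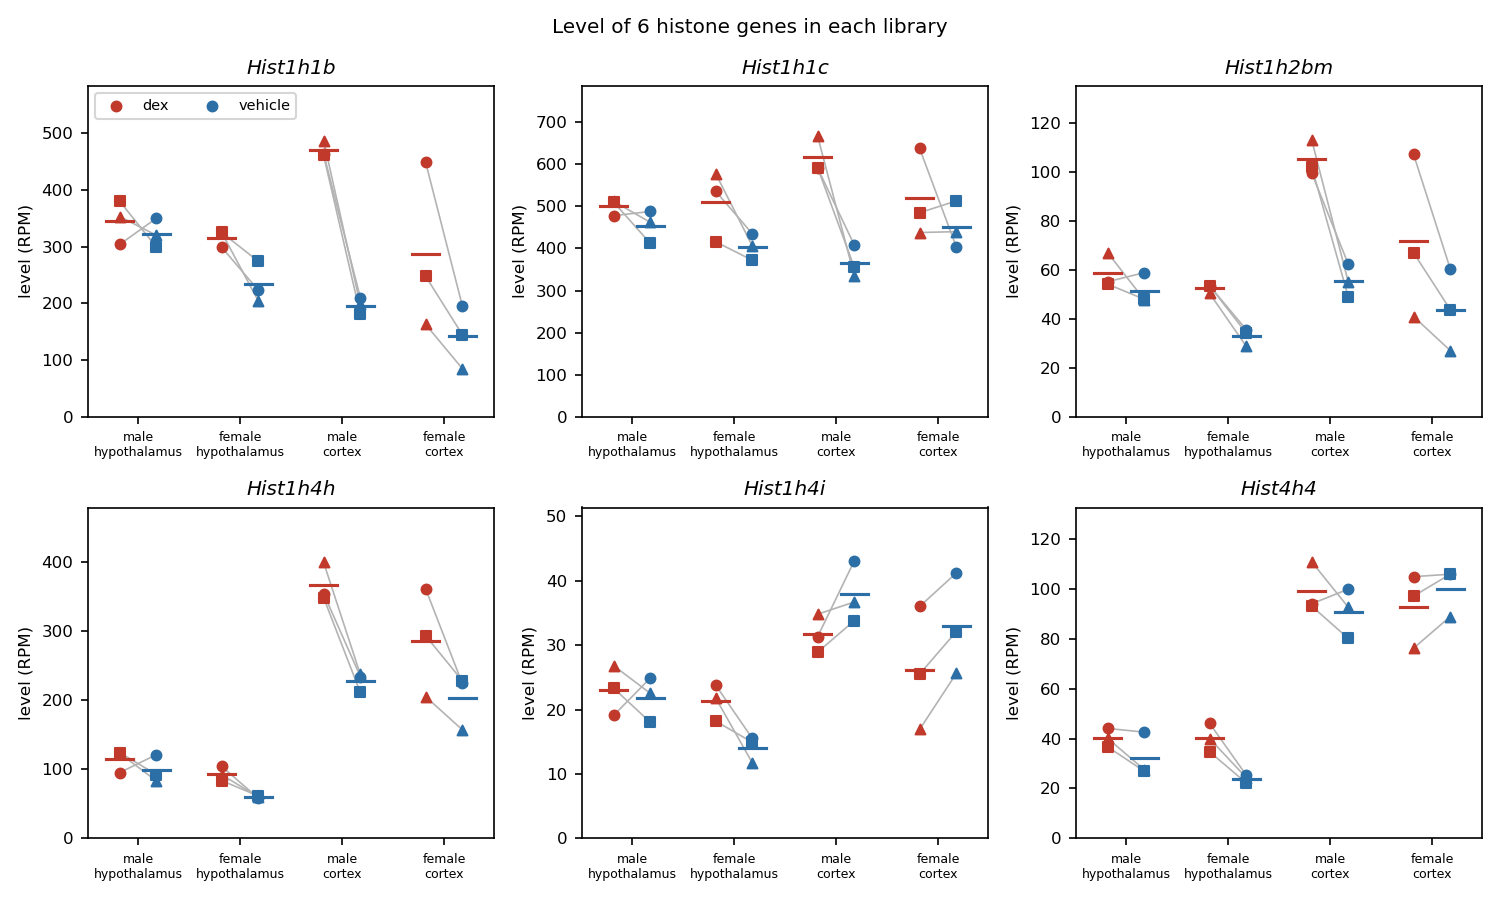
Level in RPM of 6 histone genes in each library of the 4 comparisons; red points are dex, blue points vehicle, bars are group means, and lines join libraries with the same replicate number. Hist1h1b shows its widest separation in male cortex (461 to 487 RPM with dex, 181 to 210 RPM with vehicle), while Hist4h4 separates in female hypothalamus (34.7 to 46.1 RPM with dex, 22.2 to 25.3 RPM with vehicle) and overlaps in cortex.

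In male hypothalamus no change of the histone genes passed the test. The summed level of the members was 3902, 4768 and 4691 RPM with dex and 4536, 3728 and 3672 RPM with vehicle, with overlapping groups and a ratio of means of 1.12. Replicate 1 ran against the others: 3 of 55 members were higher in its dex library than in its vehicle library, against 54 and 53 of 55 in replicates 2 and 3. Of the 55 members 0 rose and 0 fell with limma, where 0.226% of all genes rose, and 0 passed with edgeR (0.169% of all genes higher), with DESeq2 (1.36% higher and 0.589% lower) or at an unadjusted p under 0.05 (7.74% of all genes). All dex libraries lay above all vehicle libraries in Hist2h2ab alone (7.1% of all genes), and all vehicle libraries above all dex libraries in Hist2h3c2 alone (6.43%). The median log2 change was 0.17, with 53 of 55 estimates positive. It was 0.04 without replicate 2, the one with Xist, 0.06 without replicate 3 and 0.41 without replicate 1. Same-numbered libraries deviated together, and with the replicate number as a block 1 member rose, Hist4h4, and 0 fell, where 5.09% and 8.01% of all genes did. Hist4h4 had 44.1, 40.1 and 36.7 RPM with dex, against 42.6, 27.5 and 26.9 RPM with vehicle. The vehicle library of replicate 1 lay among the dex libraries, and the log2 change of 0.34 ± 0.18 had an adjusted p of 0.72 without the block and 0.039 with it, in a range of 0.039 to 1.0 over the alternative settings.

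No difference between the sexes passed for any member. On one scale over the 12 libraries of a region, the dex effect in males minus that in females had a median over members of -0.35 in hypothalamus, with positive values in 3 of 56 members, and of 0.30 in cortex, with positive values in 60 of 62. With limma 0 of all 12843 genes passed in hypothalamus and 0 of all 13680 in cortex, so the 0 members that passed there, and with edgeR, say nothing particular to the histone genes. An unadjusted p under 0.05 was reached in hypothalamus by 5 members (0.257% of all genes), and with the replicate block by 13 (2.19%). In cortex it was reached by 1 member (1.24% of all genes), and with the replicate block by 37 (5.87%), although the numbers do not pair the male cortex libraries. Without male hypothalamus replicate 2 the median difference in hypothalamus was -0.48, with 14 members at an unadjusted p under 0.05 and 0 after adjustment. The level in vehicle libraries was higher in male than in female cultures by a median of 0.56 in hypothalamus, where 46 of 56 members had an unadjusted p under 0.05 (5.28% of all genes) and 0 passed after adjustment (0.0311% of all genes were higher). Without male hypothalamus replicate 2 that median was 0.61, again with 46 members at an unadjusted p under 0.05 and 0 after adjustment. In cortex the median was 0.31, and 0 of 62 members passed after adjustment (0.0292% of all genes were higher and 0.0146% lower) or had an unadjusted p under 0.05 (17.3% of all genes). Without the vehicle and dex libraries of female cortex replicate 1, 27 of 62 members were higher and 3 lower in male than in female cortex vehicle libraries, where 27.8% and 21.7% of all genes were.

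Most H1 genes were higher and many H2A and H4 genes lower in vehicle cultures of hypothalamus than in those of cortex. On one scale over the 24 libraries, 4 of 60 members were higher and 22 lower in hypothalamus than in cortex vehicle libraries, beside 29.3% and 29.1% of all genes. All 4 higher ones were H1 genes. RPM values in this comparison are on that common scale and differ from the deposited RPM given above. Hist1h1b had a lowest, median and highest level of 257, 362 and 432 RPM in hypothalamus, against 66.7, 154 and 170 RPM in cortex, a log2 difference of 1.38 ± 0.19 (adjusted p = 6.17e-06). Hist1h1d had 294, 387 and 468 RPM in hypothalamus vehicle libraries, against 172, 231 and 254 RPM in those of cortex, a difference of 0.77 ± 0.14. In both, every hypothalamus library was above every cortex library. Hist1h1c and Hist1h1e were higher in hypothalamus by 0.71 ± 0.09 and 0.44 ± 0.10 on the log2 scale, and the difference of 0.14 in Hist1h1a did not pass.

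With all libraries, the core histone genes that passed were lower in hypothalamus: 9 of 16 H2A, 5 of 17 H2B, 1 of 10 H3 and 7 of 12 H4 members. Of all genes 29.1% were lower, so the H2B share was near that of all genes and the H3 share below it. Hist4h4 had a lowest, median and highest level of 28.0, 32.8 and 52.7 RPM in hypothalamus vehicle libraries, against 65.4, 78.2 and 87.3 RPM in cortex vehicle libraries, a log2 difference of -1.13 ± 0.11 (adjusted p = 6.62e-08). Hist1h2ai had 25.8, 31.4 and 44.9 RPM in hypothalamus vehicle libraries, against 41.1, 67.9 and 81.5 RPM in those of cortex, a difference of -0.93 ± 0.17. The regions did not overlap in Hist4h4 and overlapped at the edge in Hist1h2ai. Hist1h4n, Hist1h2br and Hist1h2ba, with differences of -1.05, -0.97 and -0.90, were at most 0.738 RPM in every hypothalamus vehicle library, so their size depends on the pseudocount of 1. Without male hypothalamus replicate 2 the counts were 4 higher and 19 lower. Without female cortex replicate 1 they were 10 higher and 22 lower, and the 10 were 5 H1 genes and the core genes Hist1h2bj, Hist1h2bl, Hist1h2bm, Hist1h3b and Hist2h2ac, so the core genes then passed in both directions. Region and the share of ribosomal RNA reads cannot be told apart in these libraries.

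**Figure D4:**
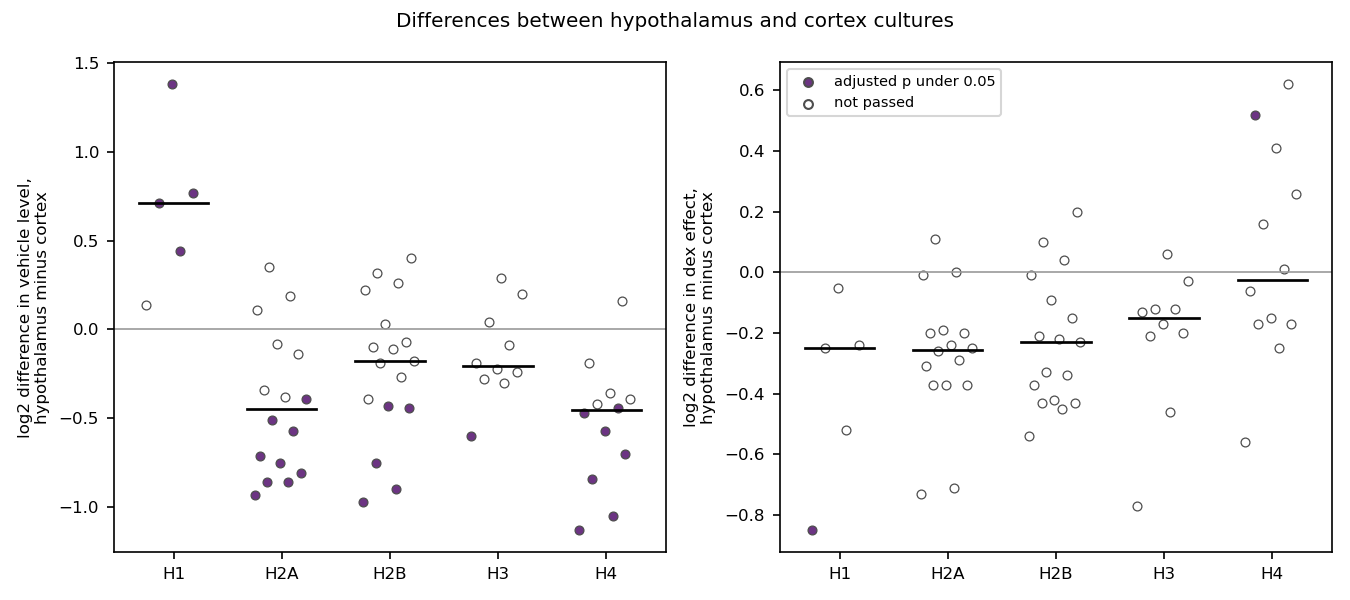
Log2 difference between hypothalamus and cortex of each of 60 members by class, for the level in vehicle libraries (left) and for the dex effect (right); bars are class medians and filled points passed at an adjusted p under 0.05. The H1 points lie above 0 in vehicle level with a median of 0.71, H2A and H4 points lie mostly below it, and in the dex effect Hist1h1b (-0.85) and Hist4h4 (0.52) are the filled points.

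The dex effect differed between the regions in 2 of 60 members, or in 16 with the replicate number as a block (2 higher and 14 lower, beside 16.9% and 22% of all genes), although the numbers do not pair the male cortex libraries. Without the block the estimate in hypothalamus minus that in cortex was higher for 1 member and lower for 1, beside 7.3% and 6.65% of all genes. With or without the block, the members' shares were below or near those of all genes. These counts thus say nothing particular to the histone genes. The median over the members was -0.20, against -0.04 for all genes. Hist1h1b had log2 changes with dex of 0.10 in male and 0.45 in female hypothalamus, against 1.26 in male and 0.97 in female cortex, and the difference between the regions was -0.85 ± 0.28 (adjusted p = 0.045). Hist4h4 had log2 changes of 0.34 in male and 0.72 in female hypothalamus, against 0.13 in male and -0.12 in female cortex, a difference of 0.52 ± 0.16 (adjusted p = 0.0341). Hist1h1b thus had its larger estimates in cortex and Hist4h4 in hypothalamus. Over 16 alternative settings the adjusted p ranged from 9.24e-06 to 0.108 for Hist1h1b and from 0.000425 to 0.11 for Hist4h4. Without male hypothalamus replicate 2 neither passed, with adjusted p-values of 0.084 and 0.0957.

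The genes that make and process histone messengers did not rise as a group in male cortex. Of 28 such genes 9 rose and 7 fell, with a median log2 change of 0.08. Of all genes there 26.7% rose and 20.9% fell, and these shares are the background of each list that follows in male cortex. Slbp, which binds the hairpin, had 76.0, 79.8 and 79.2 RPM with dex, against 100, 111 and 94.4 RPM with vehicle. Its log2 change was -0.37 ± 0.06, with an adjusted p of 0.00112 and no overlap of the groups. Zcchc11, a terminal uridylyltransferase, and Larp4, a poly(A)-binding factor, fell by 0.37 and 0.26 on that scale. Ncbp2 of the nuclear cap-binding complex rose by 0.32, Pou2f1, the octamer-binding factor Oct-1, by 0.29, and Cstf2t, a cleavage stimulation factor, by 0.27.

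Histone genes outside the clusters changed in both directions, in shares near those of all genes. Of 11 tested replication-independent histones 4 rose and 3 fell in male cortex. H1f0, a linker histone of cells that leave the cycle, rose to 218 ± 20.3 RPM with dex, against 137 ± 0.808 RPM with vehicle (SD, n = 3 each; log2 change 0.66). H2afx, the H2A variant phosphorylated at DNA breaks, and Cenpa, the centromeric H3, rose by 0.53 and 0.32. H2afj fell to 42.8 ± 4.59 RPM with dex, against 68.6 ± 1.72 RPM with vehicle, a log2 change of -0.67, and it was the one gene of this list that fell in female cortex (log2 change -0.66, adjusted p = 0.0321). Of 27 chaperones and importers 5 rose and 4 fell in male cortex, in shares below those of all genes. Spty2d1, a chaperone of H3 and H4, fell to 37.6, 34.8 and 37.1 RPM with dex, against 101, 121 and 114 RPM with vehicle (log2 change -1.59, adjusted p = 1.73e-07). It also fell in female cortex, by 1.36 on the log2 scale. Asf1b, Hjurp and Supt16 rose by 0.29, 0.23 and 0.22 in male cortex, and Anp32b and Ipo4 had log2 changes of -0.42 and -0.23.

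Cell cycle genes were read beside the histones because these messengers accumulate in S phase. In male cortex 7 of 38 genes of DNA replication and S phase rose and 10 fell, with a median log2 change of 0.04. Ccna2, cyclin A2, rose by 0.39, Cdc7 by 0.34, and Tk1 and Pole by 0.33 each, while Cdt1 and Cdc6, which license replication origins, fell by 0.63 and 0.34 on the log2 scale and E2f1 and Orc1 by 0.32 each. Of 16 genes of G2 and mitosis 11 rose and 0 fell, with a median of 0.34, among them Top2a and Ccnb1 at 0.52 each and Tpx2 at 0.50. In female cortex 0 genes of either cell cycle list passed without the block, and with it 5 rose and 9 fell in the S phase list and 9 rose and 0 fell in the mitosis list, where 19.9% of all genes rose and 18.2% fell. With the block in female cortex 7 processing genes rose and 6 fell, 3 replication-independent histones rose and 2 fell, and 3 chaperones or importers rose and 3 fell. In both hypothalamus comparisons 0 genes of the 5 lists passed without the block. With the block, 0 genes of these lists rose in hypothalamus, 1 fell in females (of the processing list), and 9 fell in males (2 of processing, 3 chaperones, 2 of S phase and 2 of mitosis). Of all genes 4.24% rose and 2.91% fell with the block in females, and 5.09% rose and 8.01% fell in males.

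**Figure D5:**
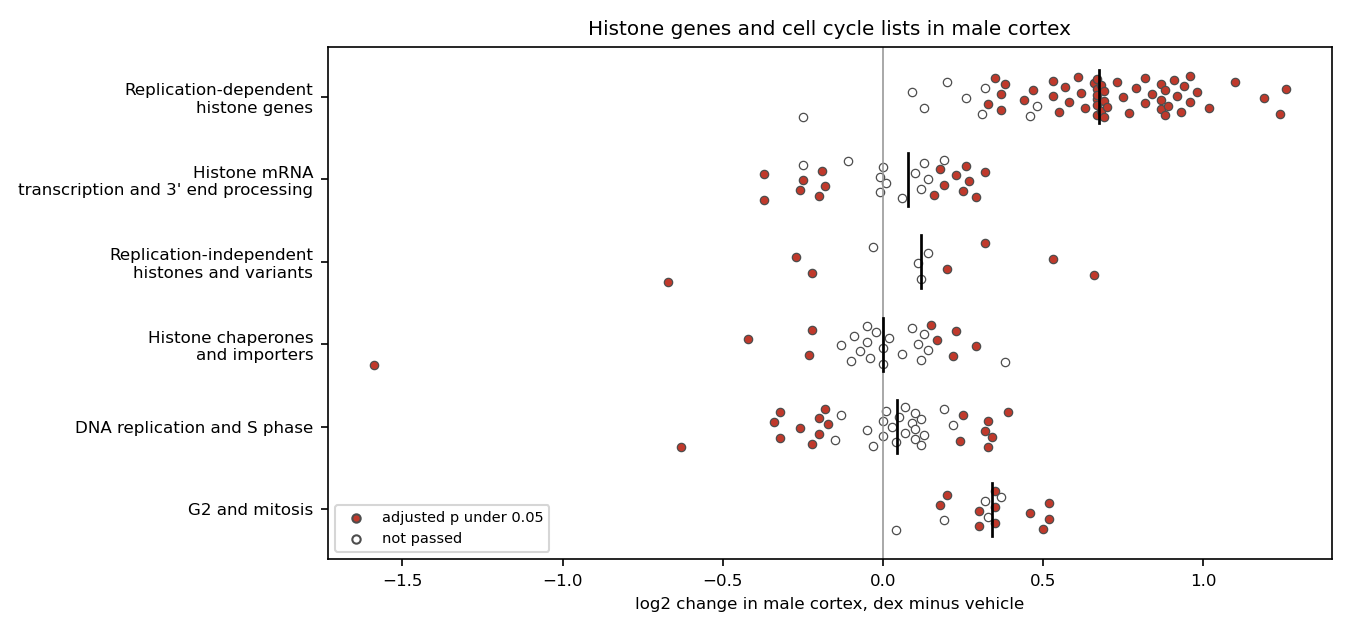
Log2 change (dex minus vehicle) in male cortex of the histone members and of the genes of 5 other lists; bars are list medians, red points passed at an adjusted p under 0.05 and open points did not. The histone members center on 0.68, the mitosis list on 0.34, and the other 4 lists have medians between 0.00 and 0.12.

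In the authors' deposited table, which gives its own fold changes and adjusted p-values, members passed at an adjusted p under 0.05 as higher in 0 cases in male hypothalamus, 1 in female hypothalamus, 18 in male cortex and 3 in female cortex. Of all genes in the authors' deposited table, 0.414% passed in male hypothalamus, 0.486% in female hypothalamus, 5.99% in male cortex and 5.33% in female cortex, in either direction, so the share in female cortex is near that of all genes. No member passed as lower there, with 0 in each of the 4 comparisons of the authors' deposited table.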

How the data were processed

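RNA was sequenced from 24 neurosphere libraries. TopHat2 (2.0.13 and 2.0.9), HTSeq and the build GRCm38 are named per the submitters' processing notes; annotation and strand setting are not given in the sources used here, so overlapping and near-identical genes cannot be separated with certainty. The authors deposited 4 tables, 1 per region and sex, with a normalized signal per library (RPM), log2 fold changes of dex over vehicle, and p-values; per the file headers the ratios came from edgeR. The 38924 entries left 38920 genes after 4 entries with shared names were dropped; 0 sample columns were unused.

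Every signal value was a whole multiple of the value of 1 read within 0.01 read (100% of values), so reads were recovered and also tested with edgeR, which called 2866 genes higher and 3183 lower in male cortex. The self-tests ran on simulated data. The main test was limma (3.58.1, R 4.3.3) on log2(RPM + 1) within each table, without a replicate block, for genes of which 3 or more of 6 libraries reached 1 RPM. Sex and region differences used recovered reads scaled by TMM in edgeR (4.0.16). Adjusted p-values (Benjamini-Hochberg, over all genes tested) were called under 0.05. Fold changes on this scale understate low genes. Alternatives were other pseudocounts and filters, edgeR, DESeq2 (1.42.0), other scalings, a replicate block and leaving out libraries.

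Same-numbered dex and vehicle libraries correlated in their deviations from group means. The values were 0.607 to 0.752 in female hypothalamus, 0.655 to 0.765 in male hypothalamus and 0.494 to 0.872 in female cortex. This pairing was read from the data under the numbers in the labels. In female cortex replicate 3 the highest value with another number was 0.492, so the pairing is uncertain for that replicate. In male cortex 1 pair was at 0.021, so the block is not used there.

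Members and gene lists were chosen with earlier results of these data known. Named were all H1 genes, the 3 most abundant genes of each other class and the tested members of clusters 3 and 4. Also named were the 5 largest called changes each way per dex comparison at a mean of 5 RPM or more. The same held for the 5 largest each way past a sex or region difference test. Others, such as Hist1h4i, were named after their values were seen. Each other list names at most 3 called genes each way, and more where log2 changes tied at the rounding given.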

Additional observations from a re-analysis of the deposited data

Results flagged for a closer look

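The dex effect on Hist1h1b differed between the regions, with a log2 difference of -0.85 ± 0.28 (hypothalamus minus cortex, limma interaction test, adjusted p = 0.045). It was called in 5 of 16 alternative settings.

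The dex effect on Hist4h4 differed in the other direction, by 0.52 ± 0.16 (adjusted p = 0.0341). It was called in 8 of 16 alternative settings.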

How the results depend on the processing

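Among the named members, to which this check was limited, no result changed sign while called under any setting. In female hypothalamus the count of members that rose, 2, became 1 with a pseudocount of 5, 0 without a filter, 37 with the replicate block, 0 with edgeR, 19 with DESeq2, 0 with plain RPM, and 0 to 1 when any library or replicate number was left out. In female cortex the replicate block gave 40 members higher and 1 lower, and in male hypothalamus 1 higher. In male cortex 1 member, Hist1h4i, was lower with the replicate block (which is not supported there as a pairing), edgeR, DESeq2, TMM without ribosomal RNA genes and plain RPM, and 0 to 1 when libraries were left out (1 without dex replicate 2 or vehicle replicate 3); the count of members that rose was 49 to 54. For the region difference in dex effect, leaving out ribosomal RNA genes gave 2 lower, edgeR 0 lower, the replicate block 2 higher and 14 lower, and leaving out a culture 0 to 2 higher and 0 to 7 lower. The count lower was 3 without female cortex replicate 1, 7 without female cortex replicate 2 and 0 without any other culture; the count higher was 2 without female cortex replicate 1, female cortex replicate 2 or male hypothalamus replicate 1, 1 without female hypothalamus replicate 3 and 0 without any other. For the sex difference in cortex, leaving out a culture gave 0 to 1 higher in dex effect and 0 to 27 higher and 0 to 3 lower in vehicle level, the high values without female cortex replicate 1. Without it the region difference in vehicle level had 10 members higher, in a range of 4 to 10 higher and 18 to 32 lower. The median log2 change in female cortex was 0.07 without dex replicate 1 and 0.68 without dex replicate 2, in male hypothalamus it was 0.04 to 0.41. The cause was not tested. The block changed no other count of members past the adjusted threshold by over 1.5 times.

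Changes within the spread between libraries, which was wide in female cortex, were not detectable, and members of high shared sequence are uncertain at any depth.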
